A study of Mus musculus with 9 samples.

Results

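The 52 genes described here are the mouse major histocompatibility complex (MHC) genes and the genes that load MHC molecules with peptide. They were taken by name from the 41978 genes of the table, as every symbol that starts with H2- (42 genes) and B2m, Tap1, Tap2, Tapbp, Nlrc5, Psmb8, Psmb9, Psmb10, Ciita and Cd74. By name they fall into 2 classical class I heavy chains (H2-K1 and H2-D1), 26 nonclassical class I genes and pseudogenes of the Q, T and M series, 10 class II genes, 4 other H2- names, the light chain, 3 peptide-loading genes, 3 immunoproteasome subunits, 2 transactivators and the invariant chain. The RNA came from semi-mature CD4 single-positive (SP4) thymocytes of Nur77-eGFP mice, whose BAC transgene drives eGFP from Nr4a1 regulatory sequence and so reports recent T cell receptor (TCR) signaling. All samples carried that transgene on a C57BL/6 background, from mice of both sexes aged 3 to 10 weeks. Live CD25- CD69+ CD24+ CD4+ CD8- cells were sorted at 10000 cells per sample into GFPlo, GFPmed and GFPhi, the lowest, middle and highest 10% of GFP. There were 3 samples per group and 9 in all, none of them treated. Nothing in the labels says that equal replicate numbers mark the same mouse, so the p-values measure the spread between these samples.

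Classical class I molecules are heavy chains held together with the light chain B2m that present peptides from inside the cell, and nearly every nucleated cell carries them. The immunoproteasome cuts proteins, the Tap1-Tap2 transporter carries the fragments into the endoplasmic reticulum, and Tapbp (tapasin) helps load them. Class II molecules present peptides from taken-up material and are made mainly by B cells, dendritic cells, macrophages and thymic epithelium, with Cd74 as their chaperone and Ciita as their master transactivator. Mouse T cells make little class II, while class I is known to rise as thymocytes mature.

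Both classical class I heavy chains, B2m and most genes of the loading machinery rose with GFP. None of the 10 class II genes passed as higher in GFPhi against GFPlo, which for so few genes is near the share of all genes that did. One class II gene, H2-Ea, lay wholly higher in GFPhi than in GFPlo without passing. H2-Ea is annotated as a polymorphic pseudogene and held only 6 to 25 reads per sample. In GFPhi against GFPlo, H2-K1 rose 2.87-fold in mean TPM and H2-D1 1.84-fold. B2m, Tap1, Tapbp and all 3 immunoproteasome subunits rose by less, and their calls depended on the scaling between samples. Of the 48 members that passed the filter on low values, 15 rose and 2 fell, H2-Ob and H2-Q2. Over the 30693 genes tested, 2.38% passed as higher and 1.51% as lower. The members' median log2 fold change was 0.197, against -0.087 over all genes tested. Passed means at or under 0.05 after Benjamini-Hochberg adjustment over all genes in limma, fitted to log2(TPM + 1), the scale of every log2 fold change given. With median-of-ratios scaling in place of TPM as deposited, 5 members passed as higher and 1 as lower. H2-K1, H2-D1, H2-K2 and H2-Q7 kept their call there. B2m (adjusted p = 0.0514), Psmb9 (adjusted p = 0.0712), Tapbp (adjusted p = 0.142), Tap1 (adjusted p = 0.147), Psmb10 (adjusted p = 0.197) and Psmb8 (adjusted p = 0.479) lost it, though their fitted log2 fold changes, from 0.48 to 0.86, were larger than without that scaling. The 5 nonclassical class I genes other than H2-Q7 lost it too. At an additional limit of a log2 fold change of at least 1, 3 members counted as higher (H2-K1, H2-K2 and H2-Q7) and 1 as lower (H2-Ob). The shares of all genes under that rule were 1.26% and 0.404%.

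Depth ran from 7465552 to 14943774 reads on genes per sample. Nr4a1, the gene whose control regions drive the reporter, read 213, 187 and 251 TPM in the GFPlo samples, 366, 351 and 406 in GFPmed and 767, 917 and 836 in GFPhi, a log2 fold change of 1.95 ± 0.12 (SE, adjusted p = 0.000188) between the outer groups. All 8 SP4 markers stood above the level of genes that thymocytes are not known to use, set at the 95th percentile of 1549 olfactory and vomeronasal receptor genes. That receptor-gene level was 2.28 in reads per kilobase of exon, scaled to depth (RPKM). Single genes are compared with each other on that scale, unless TPM is named. GFPhi 2 stood apart, with the fewest genes at a TPM of at least 1 (23486, against up to 29902) and the lowest share of reads on receptor genes (2247 RPM, against up to 4856). Without it, 13 members passed as higher and 3 as lower in GFPhi against GFPlo. The sort removed CD25+ cells, yet all 3 Treg markers rose with GFP: their summed level was 8.8 to 9.27 TPM in GFPlo and 37.9 to 46.2 in GFPhi, with Foxp3 at 14.0, 14.8 and 18.4 TPM in GFPhi. Cd8a and Cd8b1 fell, by log2 fold changes of -1.12 and -0.79, and so did Cd69, by -0.79. The part of these in the results on MHC genes was not tested, and in bulk RNA a change in the share of cells cannot be told apart from a change per cell.

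**Figure D1:**
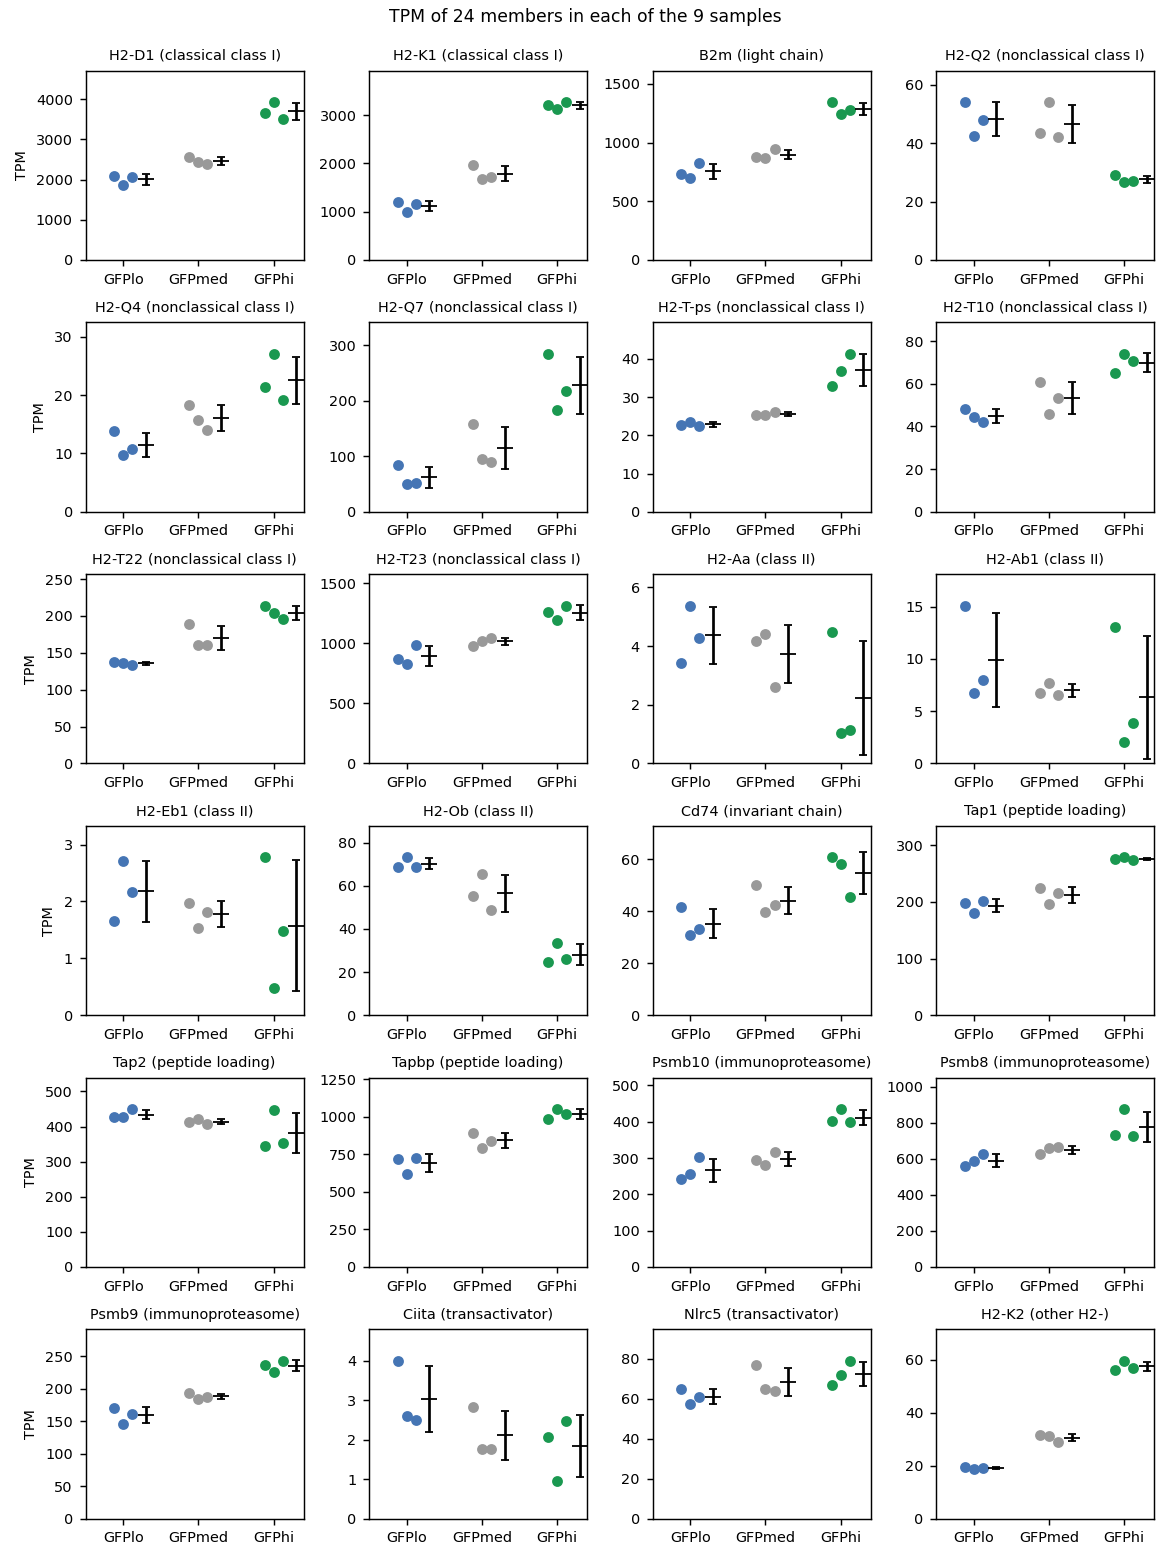
TPM of 24 members in each of the 9 samples, one panel per gene with its own axis from 0. Points are samples, and the black bar is the mean ± SD of 3 samples. In H2-K1, H2-D1 and B2m the groups rise in order without overlap, whereas the 3 panels of H2-Aa, H2-Ab1 and H2-Eb1 show overlapping groups at low TPM.

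H2-K1 encodes one of the 2 classical heavy chains of C57BL/6 mice (chr17:33996017-34000347, minus strand, GRCm38). It read 1198, 999.7 and 1150.5 TPM in the GFPlo samples, 1957, 1672 and 1728 in GFPmed and 3211, 3125 and 3267 in GFPhi. All 3 groups were separate, with GFPmed between the others. The log2 fold change was 1.52 ± 0.08 (SE, adjusted p = 0.000122) in GFPhi against GFPlo, 0.84 ± 0.08 (SE, adjusted p = 0.00403) in GFPhi against GFPmed and 0.68 ± 0.08 (SE, adjusted p = 0.064) in GFPmed against GFPlo, the last of which did not pass. H2-D1, the other classical heavy chain (chr17:35262730-35267499, plus strand), read 2089, 1857 and 2069 TPM in the GFPlo samples, 2567, 2441 and 2377 in GFPmed and 3663, 3926 and 3498 in GFPhi. Its groups were separate as well. H2-D1 rose by 0.88 ± 0.07 (SE, adjusted p = 0.000544) in GFPhi against GFPlo and by 0.59 ± 0.07 (SE, adjusted p = 0.0071) in GFPhi against GFPmed. B2m, the light chain that every class I heavy chain needs (chr2:122147686-122153083, plus strand), read 732, 700.3 and 828 TPM in the GFPlo samples, 881, 866.5 and 941 in GFPmed and 1343, 1239 and 1279 in GFPhi. The groups again did not overlap, and B2m rose by 0.77 ± 0.07 (SE, adjusted p = 0.00129) in GFPhi against GFPlo. Its rise from GFPmed to GFPhi was 0.52 ± 0.07 (SE, adjusted p = 0.0148), and was lost when GFPmed 1, GFPmed 2, GFPhi 1 or GFPhi 3 was left out, with adjusted p from 0.0537 to 0.0852. H2-K1, H2-D1 and B2m held between 4102 and 25359 reads per sample.

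Per exonic length, on the RPKM scale, B2m was the highest member, at 817 ± 68.9 RPKM in GFPlo and 1414 ± 111 in GFPhi (mean ± SD, n = 3). H2-D1 followed at 442 ± 28.1 and 823 ± 33.4, and H2-K1 at 172 ± 16.0 and 499 ± 28.1. These 3 did not exchange places in any group. The change was larger in H2-K1 than in H2-D1. The ratio of H2-K1 to H2-D1 within a sample, which no scaling between samples can change, was 0.388 ± 0.0123 in GFPlo, 0.506 ± 0.0270 in GFPmed and 0.607 ± 0.0484 in GFPhi. No sample of one group overlapped with another in this ratio. It is one of 6 ratios chosen after the values had been seen, so it is given with no test.

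The stretches before the start of class I genes are shown because they hold matches to binding motifs of factors known to act downstream of the TCR and of interferon. The windows come from RefSeq (GRCm38.p6) and run from 250 bases before to 50 after each start. Of the 52 members, 35 had one. The NF-kB consensus was searched on both strands and occurred in 10 of these 35, of which 9 were among the 21 class I genes and B2m. Of the 13 members with a window that rose, 6 held it. Of the 20 that did not pass or were not tested, 4 held it. Over all 27025 genes with a window, 9.55% held it. The class I genes descend from one another by duplication, so their matches are not independent. The last 200 bases before the start of H2-K1 (chr17:34000348-34000547, minus strand), of H2-Q7 (chr17:35438955-35439154, plus strand) and of H2-Q4 (chr17:35379417-35379616, plus strand) are printed with the match in capitals. B2m (chr2:122147487-122147685, plus strand) lies outside the MHC. H2-Q2 (chr17:35342107-35342241, plus strand), which fell, is shown up to its first annotated exon and holds no match. Whether a match goes with the direction of change was not tested.
H2-K1: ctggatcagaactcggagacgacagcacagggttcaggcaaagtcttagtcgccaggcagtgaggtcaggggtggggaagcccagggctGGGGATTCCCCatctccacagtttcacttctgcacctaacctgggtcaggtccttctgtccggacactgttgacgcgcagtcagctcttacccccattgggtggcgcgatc
H2-Q7: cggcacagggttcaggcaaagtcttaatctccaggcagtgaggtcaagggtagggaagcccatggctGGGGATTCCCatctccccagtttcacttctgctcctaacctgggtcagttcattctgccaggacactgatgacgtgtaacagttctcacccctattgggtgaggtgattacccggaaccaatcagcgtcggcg
H2-Q4: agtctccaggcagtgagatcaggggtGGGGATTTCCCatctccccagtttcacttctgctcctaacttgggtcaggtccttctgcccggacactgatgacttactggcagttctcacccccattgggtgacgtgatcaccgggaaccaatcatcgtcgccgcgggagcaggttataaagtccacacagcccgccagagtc
B2m: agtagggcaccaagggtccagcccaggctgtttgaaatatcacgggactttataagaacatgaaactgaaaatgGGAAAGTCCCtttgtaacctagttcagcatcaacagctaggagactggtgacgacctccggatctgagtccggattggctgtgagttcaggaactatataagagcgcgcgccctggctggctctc
H2-Q2: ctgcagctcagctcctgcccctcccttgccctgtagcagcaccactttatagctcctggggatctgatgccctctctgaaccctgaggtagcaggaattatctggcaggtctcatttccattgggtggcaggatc

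Set side by side, 30 bases around the match show how far the site is shared. The site of H2-D1 lies at chr17:35262913-35262942 (plus strand), inside a longer annotated transcript of that gene, and that of H2-Q6 at chr17:35424667-35424696 (plus strand). H2-T22 has one at chr17:36042936-36042965 (minus strand), H2-M3 at chr17:37270098-37270127 (plus strand) and H2-Aa, a class II gene, at chr17:34287935-34287964 (minus strand). H2-M2 also held a match and is not printed.
H2-K1: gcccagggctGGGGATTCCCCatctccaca
H2-D1: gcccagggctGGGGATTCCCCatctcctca
H2-Q6: gcccatggctGGGGATTCCCCatctcccca
H2-Q7: gcccatggctGGGGATTCCCatctccccag
H2-Q4: gatcaggggtGGGGATTTCCCatctcccca
B2m: actgaaaatgGGAAAGTCCCtttgtaacct
H2-T22: aaagtagctgGGAGAGTCCCtaattggctt
H2-M3: acccagcattGGAGATTCCCccatttcctc
H2-Aa: agcaggttcaGGGAGTTCCCCtagcctctt

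The interferon-stimulated response element was searched as GAAA, any 2 bases and GAAA again. It occurred on either strand in 3 of 35 members and in 3.99% of all genes with a window. Those 3 were among the 13 members with a window that rose. This fixed string does not count near forms, such as tttcacttct in the stretches of H2-K1, H2-Q7 and H2-Q4 printed above. A window without a match may therefore still hold a related sequence. Its matches lie in B2m at chr2:122147538-122147567 (plus strand), in H2-T22 at chr17:36042914-36042943 and in H2-T23 at chr17:36032806-36032835 (both minus strand), and the 30 bases around each are printed with the match in capitals. In H2-T22 and H2-T23 the match is on the opposite strand. The stretch of H2-T23 lies inside the annotated span of that gene, which runs to 36032855.
B2m: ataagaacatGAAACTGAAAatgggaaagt
H2-T22: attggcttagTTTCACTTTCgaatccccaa
H2-T23: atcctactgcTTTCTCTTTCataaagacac

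The Y box GATTGG, where NF-Y binds, occurred in 25 of 35 members and in 18.2% of all genes with a window. The core TGACG of the X2 box occurred in 14 of 35, against 23.0% of all. The NR4A element AAAGGTCA occurred in 1 of 35, H2-Eb1, against 1.7% of all. A match is a description of letters and says nothing about binding in these cells.

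Among the 26 nonclassical class I names, 22 were tested, 6 rose, 1 fell and 15 did not pass in GFPhi against GFPlo, with a median log2 fold change of 0.117. The shares of all genes tested were 2.38% higher and 1.51% lower. The rises were in H2-Q4, H2-Q7, H2-T-ps, H2-T10, H2-T22 and H2-T23. H2-T23, the Qa-1 heavy chain that shows a leader peptide of other class I chains to NK receptors, was the highest of them at 124 ± 11.3 RPKM in GFPlo and 176 ± 13.8 in GFPhi. It read 867, 824 and 986 TPM in the GFPlo samples, 979, 1022 and 1040.4 in GFPmed and 1256, 1190.3 and 1311 in GFPhi. GFPhi lay above both other groups, and H2-T23 rose by 0.49 ± 0.07 (SE, adjusted p = 0.0114), a call lost without GFPhi 3 (adjusted p = 0.0538). H2-T22, which certain gamma-delta T cells recognize, read 137, 137 and 134 TPM in the GFPlo samples, 189, 161 and 161 in GFPmed and 214, 203 and 195 in GFPhi. Its groups did not overlap, and it rose by 0.58 ± 0.07 (SE, adjusted p = 0.00562). H2-T10, a near relative, read 48.3, 44.4 and 41.8 TPM in the GFPlo samples, 60.9, 45.8 and 53.5 in GFPmed and 65.1, 73.9 and 70.5 in GFPhi. GFPhi stood above the rest, and H2-T10 rose by 0.63 ± 0.12 (SE, adjusted p = 0.0251), a call lost on leaving out GFPlo 2, GFPlo 3, GFPmed 3, GFPhi 2 or GFPhi 3 (adjusted p from 0.0534 to 0.0984). These last genes share sequence: 31.5% of the 100-base windows of H2-T22 and 28.1% of those of H2-T10 occur in another gene, so reads could not always be told apart. The pseudogene H2-T-ps read 22.7, 23.5 and 22.3 TPM in the GFPlo samples, 25.4, 25.2 and 26.1 in GFPmed and 32.9, 36.8 and 41.3 in GFPhi. It rose by 0.67 ± 0.10 (SE, adjusted p = 0.0102), with GFPhi above both other groups.

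H2-Q7 belongs to the Qa-2 genes, whose product is tethered to the membrane by a lipid anchor. It read 84.3, 50.3 and 52.5 TPM in the GFPlo samples, 158, 95.6 and 90.0 in GFPmed and 284, 183 and 217 in GFPhi. GFPhi stayed above the other groups, and GFPmed above GFPlo. With a log2 fold change of 1.87 ± 0.29 (SE, adjusted p = 0.0118) it had the largest rise of any member that passed. The call was lost without GFPlo 2 (adjusted p = 0.0548) or GFPlo 3 (adjusted p = 0.0528). Its neighbours H2-Q6 and H2-Q5 moved by 1.35 ± 0.30 (SE, adjusted p = 0.0516) and 2.28 ± 0.57 (SE, adjusted p = 0.0799), neither of which passed. H2-Q6 had 5.10, 3.11 and 3.69 TPM in GFPlo and 18.6, 8.76 and 9.19 in GFPhi. H2-Q5 had 0, 3.72 and 1.11 TPM in GFPlo and 9.96, 10.8 and 7.89 in GFPhi. Both lay wholly higher in GFPhi. Of the windows of H2-Q7, 12% occur in another gene, mainly H2-Q10, H2-Q5 and H2-Q6, and of those of H2-Q5 14%. H2-Q4 read 13.8, 9.72 and 10.8 TPM in the GFPlo samples, 18.4, 15.7 and 14.1 in GFPmed and 21.3, 27.1 and 19.2 in GFPhi. Its groups were in order without overlap, and it rose by 0.92 ± 0.18 (SE, adjusted p = 0.0353). Leaving out any sample other than GFPlo 1 lost that call, with adjusted p from 0.0543 to 0.134.

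H2-Q2 fell, while H2-Q4 and H2-Q7 of the same series rose. It read 54.1, 42.5 and 48.0 TPM in the GFPlo samples, 43.6, 54.0 and 42.2 in GFPmed and 29.0, 26.8 and 27.1 in GFPhi. The GFPlo and GFPmed samples overlapped and all 3 GFPhi samples lay below them. The log2 fold changes were -0.77 ± 0.12 (SE, adjusted p = 0.0146) in GFPhi against GFPlo and -0.73 ± 0.12 (SE, adjusted p = 0.0368) in GFPhi against GFPmed. The first was lost without GFPlo 3 (adjusted p = 0.0605) or GFPhi 3 (adjusted p = 0.063), and the second without any 1 of 8 samples (adjusted p up to 0.137). H2-Q10, at 3.94, 1.10 and 2.84 TPM in GFPlo and 0.638, 0.487 and 0.133 in GFPhi, also lay lower but did not pass, at -1.28 ± 0.35 (SE, adjusted p = 0.111).

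No gene of the M series passed. H2-M3, which presents formylated peptides, was its highest member per exonic length, at 37.4 RPKM over all samples. H2-M6-ps and H2-M10.2 also stood above the receptor-gene level. H2-M3 read 61.1, 66.0 and 64.5 TPM in GFPlo and 86.7, 85.5 and 79.3 in GFPhi. GFPhi lay wholly above GFPlo, with a log2 fold change of 0.39 ± 0.09 (SE, adjusted p = 0.0563). H2-T24 differed by 0.05 (95% interval -0.31 to 0.40). H2-Bl, H2-Q1, H2-Q3, H2-T3, H2-M2, H2-M5, H2-M6-ps, H2-M9, H2-M10.2 and H2-M10.5 did not pass either. In all, 12 of the 26 nonclassical names stood above 2.28 RPKM. Of the M series, H2-M1, H2-M10.1, H2-M10.4 and H2-M10.5-ps1 did not reach 1 TPM in 3 samples and were not tested.

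H2-K2, a transcribed pseudogene next to H2-K1 (chr17:33974659-33978827, minus strand), was counted among the other H2- names. It read 19.6, 18.8 and 19.2 TPM in the GFPlo samples, 31.7, 31.0 and 29.0 in GFPmed and 56.2, 59.5 and 57.0 in GFPhi. The groups were separate, and the log2 fold changes were 1.54 ± 0.07 (SE, adjusted p = 6.49e-05) in GFPhi against GFPlo, 0.89 ± 0.07 (SE, adjusted p = 0.00185) in GFPhi against GFPmed and 0.65 ± 0.07 (SE, adjusted p = 0.0435) in GFPmed against GFPlo. The last was the 1 member call in that comparison, and it was lost whichever sample was left out (adjusted p from 0.0721 to 0.231). Of its 100-base windows, 1.6% occur in another gene. The other 3 of these names, H2-Ke6, H2-Pa and H2-Pb, did not pass.

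**Figure D2:**
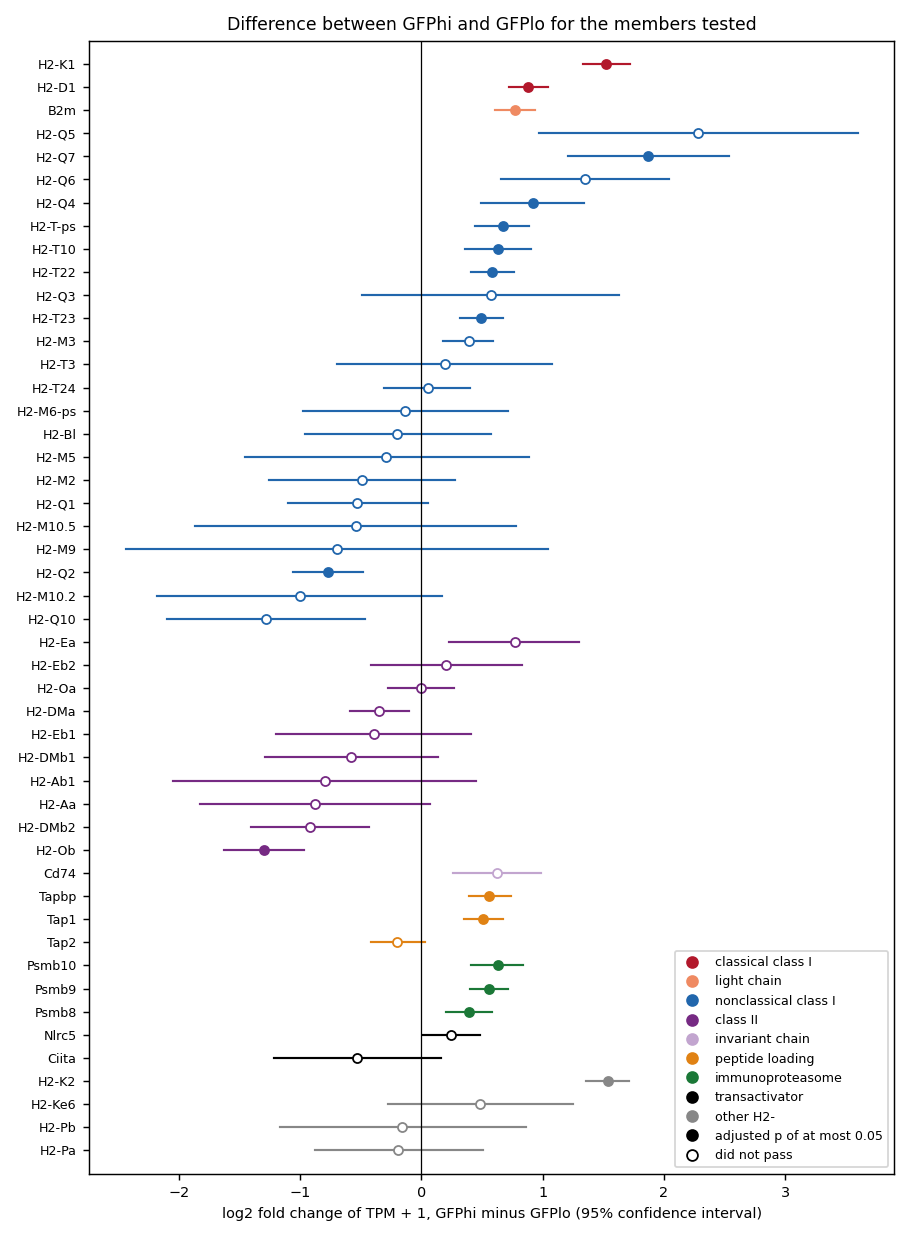
Log2 fold change of TPM + 1 in GFPhi against GFPlo for the 48 members tested, by class, with 95% confidence intervals from limma. Filled circles had an adjusted p of at most 0.05. The classical heavy chains, B2m and the immunoproteasome subunits lie right of 0. Nonclassical class I genes lie on both sides, 12 of 22 of them right of 0. Filled circles right of 0 run from 0.39 in Psmb8 to 1.87 in H2-Q7, while H2-Ob (-1.30) and H2-Q2 (-0.77) lie left of it.

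The 3 immunoproteasome subunits replace the catalytic subunits of the constitutive proteasome, Psmb8 that of Psmb5, Psmb9 that of Psmb6 and Psmb10 that of Psmb7. Psmb10 read 242, 256 and 303 TPM in the GFPlo samples, 294, 281 and 318 in GFPmed and 402, 434 and 398 in GFPhi, and rose by 0.63 ± 0.09 (SE, adjusted p = 0.0103). Psmb9 read 171, 146 and 161 TPM in the GFPlo samples, 193, 185 and 188 in GFPmed and 237, 226 and 243 in GFPhi, and rose by 0.56 ± 0.07 (SE, adjusted p = 0.00409). Psmb8 read 558, 589 and 625 TPM in the GFPlo samples, 625, 658 and 665 in GFPmed and 729.8, 875 and 727 in GFPhi, and rose by 0.39 ± 0.08 (SE, adjusted p = 0.0439). In all 3 the GFPhi samples lay above every other sample. The call of Psmb10 was lost without GFPlo 2 (adjusted p = 0.0516). That of Psmb8 was lost on leaving out any sample but GFPhi 2 (adjusted p from 0.0628 to 0.147). None of the 4 genes of the constitutive and thymic proteasome list passed: Psmb5 differed by -0.19 (95% interval -0.42 to 0.03), Psmb6 by 0.06 (-0.30 to 0.42), Psmb7 by -0.21 (-0.55 to 0.13) and Psmb11 by -0.02 (-0.88 to 0.83).

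Ratios within a sample set each immunoproteasome subunit against its constitutive partner. On the RPKM scale the ratio of Psmb8 to Psmb5 was 1.17 ± 0.109 in GFPlo, 1.46 ± 0.0656 in GFPmed and 1.76 ± 0.144 in GFPhi (mean ± SD, n = 3). That of Psmb10 to Psmb7 was 2.28 ± 0.0301 in GFPlo, 2.60 ± 0.230 in GFPmed and 4.16 ± 0.175 in GFPhi. In these the groups were in order without overlap. That of Psmb9 to Psmb6 was 0.340 ± 0.0713 in GFPlo, 0.391 ± 0.0673 in GFPmed and 0.479 ± 0.0808 in GFPhi, where the groups overlapped.

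Of the 2 chains of the peptide transporter, Tap1 rose and Tap2 did not pass. Tap1 read 198, 180.4 and 203 TPM in the GFPlo samples, 225, 197 and 215 in GFPmed and 276, 279 and 274 in GFPhi. GFPhi was separate from the rest, and Tap1 rose by 0.51 ± 0.07 (SE, adjusted p = 0.00646) in GFPhi against GFPlo and by 0.38 ± 0.07 (SE, adjusted p = 0.0423) in GFPhi against GFPmed. The second call was lost whichever sample was left out, with adjusted p from 0.0566 to 0.161. Tap2 read 426, 427 and 449 TPM in the GFPlo samples, 413.5, 421 and 407 in GFPmed and 343, 447 and 354 in GFPhi. Its groups overlapped through GFPhi 2, the sample that stood apart, and its log2 fold change was -0.20 ± 0.10 (SE, adjusted p = 0.443). Without GFPhi 2 it passed as lower (log2 fold change -0.31, adjusted p = 0.0202). The ratio of Tap1 to Tap2 within a sample was 0.370 ± 0.0183 in GFPlo, 0.426 ± 0.0334 in GFPmed and 0.608 ± 0.0797 in GFPhi (mean ± SD, n = 3, RPKM), with no overlap of GFPhi with the other groups. Tapbp read 719.9, 622 and 729 TPM in the GFPlo samples, 896, 794 and 842 in GFPmed and 985, 1051 and 1019 in GFPhi. It rose by 0.56 ± 0.08 (SE, adjusted p = 0.0068), and its groups did not overlap. Of the 100-base windows of Tapbp, 14.8% are shared, mainly with the overlapping gene Gm19412, and how strand was treated in counting is not given in the sources used here.

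In the windows used, Tap1 and Psmb9 start back to back on chromosome 17. They share the sequence between these starts, which is why a stretch of it is shown. The annotated span of Psmb9 runs to 34187764, past the annotated start of Tap1 at 34187553. The stretch shown therefore lies inside the annotated span of Psmb9. The 30 bases are at chr17:34187460-34187489 on the plus strand, from 96 to 67 bases before the start of Tap1, with TGACG in capitals. Neither gene's window held the NF-kB consensus or the interferon element as searched.
Tap1 and Psmb9: cagagacaggTGACGacagagggtcctgcc

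**Figure D3:**
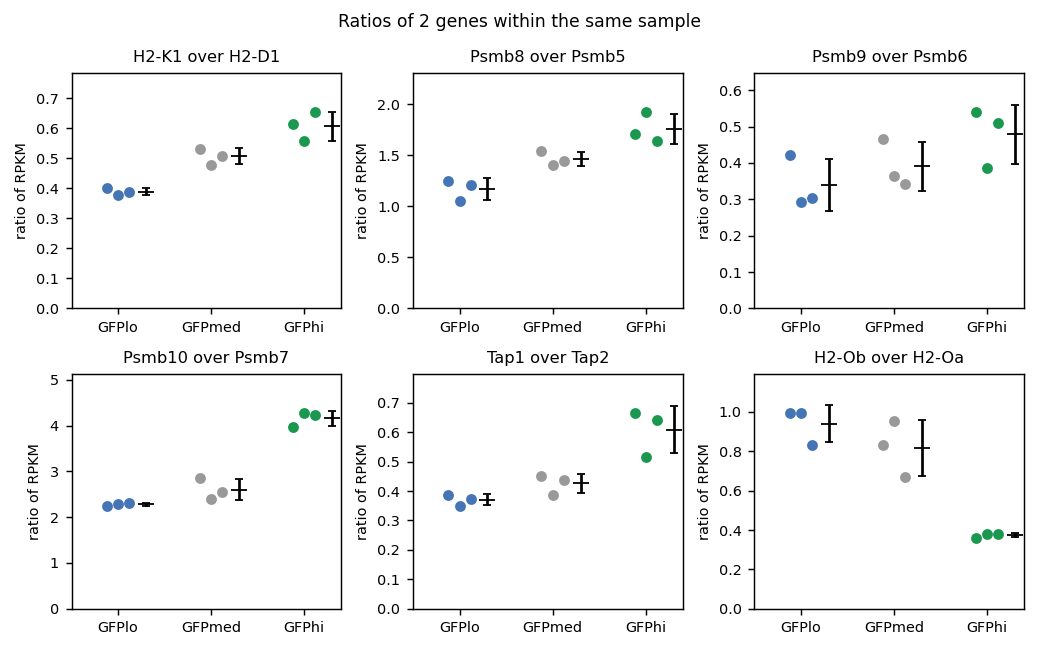
Ratios of the RPKM of 2 genes within each sample, one panel per pair with an axis from 0. Points are the 3 samples of a group, and the black bar is the mean ± SD. H2-K1 over H2-D1 goes from 0.388 in GFPlo to 0.607 in GFPhi on average, Psmb10 over Psmb7 from 2.28 to 4.16, and H2-Ob over H2-Oa from 0.941 to 0.374.

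Nlrc5, the transactivator of class I genes, and Ciita, that of class II genes, are the NLR-family regulators of the pathway. Nlrc5 read 65.0, 57.4 and 60.9 TPM in the GFPlo samples, 76.7, 64.8 and 63.8 in GFPmed and 66.7, 72.0 and 78.9 in GFPhi. GFPhi lay above GFPlo by a small margin but overlapped with GFPmed, and the log2 fold change of 0.24 ± 0.10 (SE, adjusted p = 0.336) did not pass (95% interval 0.01 to 0.48). Ciita read 3.99, 2.59 and 2.50 TPM in the GFPlo samples, 2.83, 1.75 and 1.76 in GFPmed and 2.07, 0.959 and 2.48 in GFPhi. Its mean of 1.32 RPKM is under the receptor-gene level, the difference was -0.53 ± 0.30 (SE, adjusted p = 0.53), and its interval ran from -1.22 to 0.16.

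Over all genes tested in GFPhi against GFPlo, 2.38% passed as higher and 1.51% as lower. Of the 10 class II genes, all were tested, 1 fell, 9 did not pass and none rose, a count near the higher share. Their median log2 fold change was -0.485. Above the receptor-gene level of 2.28 RPKM stood 6 of them, H2-Oa, H2-Ob, H2-DMa, H2-DMb1, H2-DMb2 and, at 2.34 RPKM, H2-Ab1. The O and DM genes encode chains of H2-O and H2-M, nonclassical class II molecules that act inside the cell: H2-M exchanges the peptide on class II, and H2-O restrains H2-M. H2-Ob, the beta chain of H2-O (chr17:34238903-34254414, plus strand), read 68.8, 73.1 and 68.5 TPM in the GFPlo samples, 55.2, 65.6 and 48.7 in GFPmed and 24.7, 33.6 and 26.0 in GFPhi. GFPhi lay far below the other groups. H2-Ob fell, by -1.30 ± 0.14 (SE, adjusted p = 0.00269) in GFPhi against GFPlo and -0.98 ± 0.14 (SE, adjusted p = 0.0176) in GFPhi against GFPmed, the second call being lost without GFPmed 1, GFPmed 2, GFPhi 1 or GFPhi 3 (adjusted p from 0.0595 to 0.0833). It was covered by 247 to 784 reads per sample. Its partner H2-Oa, the alpha chain, read 36.0, 38.2 and 42.7 TPM in the GFPlo samples, 34.5, 35.8 and 37.8 in GFPmed and 35.6, 45.7 and 35.8 in GFPhi. Its groups overlapped and its difference was 0.00 (95% interval -0.28 to 0.27). The ratio of H2-Ob to H2-Oa within a sample was 0.941 ± 0.0931 in GFPlo, 0.818 ± 0.142 in GFPmed and 0.374 ± 0.0111 in GFPhi (RPKM, mean ± SD, n = 3). H2-DMb2 had 16.7 ± 1.11 TPM in GFPlo and 8.50 ± 2.19 in GFPhi (mean ± SD, n = 3), and H2-DMa 18.0 ± 0.250 and 14.0 ± 1.43. Both lay wholly lower in GFPhi, with differences of -0.92 ± 0.21 (SE, adjusted p = 0.0601) and -0.35 ± 0.11 (SE, adjusted p = 0.16) that did not pass.

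The conventional class II chains were near or under the receptor-gene level, with H2-Aa at 0.734 and H2-Eb1 at 1.53 RPKM over all samples. H2-Aa read 3.43, 5.37 and 4.28 TPM in the GFPlo samples, 4.17, 4.40 and 2.61 in GFPmed and 4.47, 1.05 and 1.15 in GFPhi. H2-Ab1 read 15.1, 6.74 and 7.94 TPM in the GFPlo samples, 6.78, 7.65 and 6.50 in GFPmed and 13.0, 2.07 and 3.88 in GFPhi. H2-Eb1 read 1.65, 2.72 and 2.16 TPM in the GFPlo samples, 1.98, 1.53 and 1.81 in GFPmed and 2.77, 0.470 and 1.48 in GFPhi. In each gene GFPhi 1 lay within or above the GFPlo range and GFPhi 2 was the lowest sample, so the groups overlapped. The differences were -0.88 ± 0.41 (SE, adjusted p = 0.413), -0.80 ± 0.54 (SE, adjusted p = 0.633) and -0.39 ± 0.35 (SE, adjusted p = 0.744), none of which passed. GFPlo 1 and GFPhi 1, the samples with the highest H2-Ab1, also had the most reads on receptor genes (4856 and 4786 RPM), and GFPhi 2 had the least of both. Above the receptor-gene level in RPKM stood 1 of 6 B cell markers (Cd79a, 2.96 RPKM), 2 of 6 macrophage or monocyte markers (Csf1r, 3.84, and Lyz2, 3.63) and 0 of 7 dendritic cell markers. None of these markers was without reads in all samples. The 6 B cell markers summed to 20.6 to 28.8 TPM in GFPlo and 11.7 to 31.1 in GFPhi, the 7 dendritic cell markers to 6.81 to 13.1 and 4.08 to 12.5, and the 6 macrophage or monocyte markers to 17.5 to 26.1 and 14.5 to 22.7. The 5 thymic epithelial markers in the table summed to 3.86 to 8.96 TPM in GFPlo and 10.3 to 13.2 in GFPhi, and one of them, Epcam, rose by 1.38 ± 0.21 (SE, adjusted p = 0.012). The part of these cells in the class II values was not tested.

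Cd74, the invariant chain that escorts class II chains, read 41.6, 31.0 and 33.1 TPM in the GFPlo samples, 49.9, 39.8 and 42.3 in GFPmed and 60.7, 58.1 and 45.6 in GFPhi. All 3 GFPhi samples lay above the GFPlo samples, and the difference of 0.62 ± 0.16 (SE, adjusted p = 0.0845) did not pass. It did pass in 4 of 20 other fits, with an adjusted p of 0.0489 with a replicate block, 0.05 with quantile scaling, 0.0421 when only genes above the receptor genes in TPM were tested and 0.00872 in limma-voom on solved reads. Over all 20 the adjusted p reached up to 0.261.

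**Figure D4:**
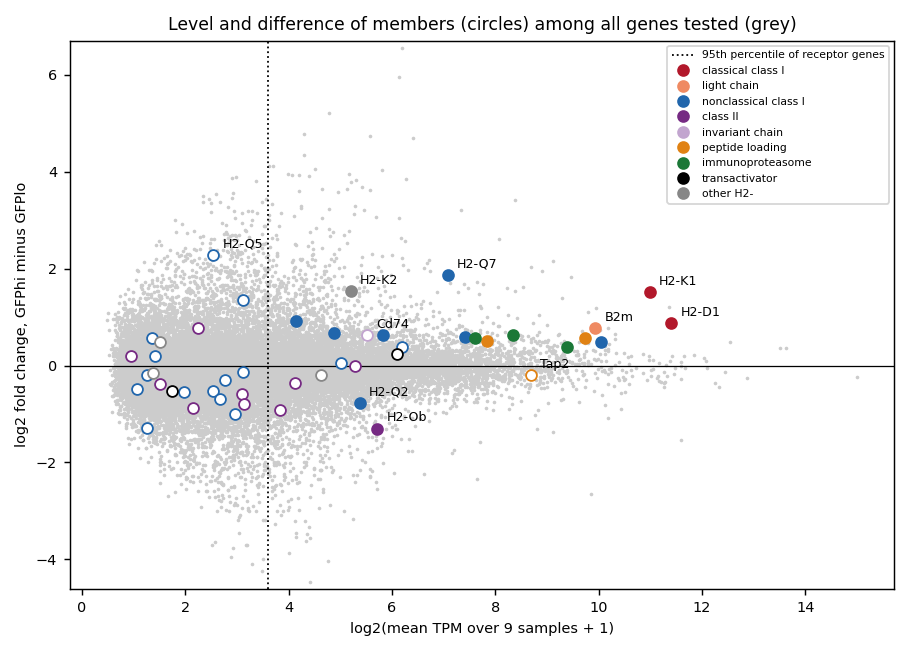
Log2 fold change in GFPhi against GFPlo plotted against log2(mean TPM of 9 samples + 1) for members (circles, filled where they passed) and all 30693 genes tested (grey points). The dotted line marks the 95th percentile of receptor genes in TPM, 11.1. H2-K1 (1.52) and H2-D1 (0.88) lie far to the right and above most genes of their level, and all 17 filled circles lie right of the dotted line.

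The GFPmed samples show how the change was spread over the reporter range. In GFPmed against GFPlo 1 member rose (H2-K2) and none fell, while over all genes 0.0717% passed as higher and 0.00326% as lower in limma. At an unadjusted p under 0.05, 11 members were higher and 0 lower, against 2.73% and 1.93% of all genes. Without overlap between the groups, 14 lay higher and 2 lower, against 5.55% and 4.7% of all genes. In GFPhi against GFPmed, 5 members rose (B2m, H2-D1, H2-K1, H2-K2 and Tap1) and 2 fell (H2-Ob and H2-Q2), against 0.899% and 0.609% of all genes. There 18 lay wholly higher and 5 wholly lower, against 7.11% and 9.41%. These comparisons share samples. Among the 17 members that passed in GFPhi against GFPlo, GFPmed had covered a median of 0.381 of the log2 difference (0.274 over all 1194 genes that passed), from 0.0633 in H2-Q2 to 0.546 in H2-T22. For H2-K1 the value was 0.445 and for H2-Ob 0.244.

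An ordered trend over GFPlo, GFPmed and GFPhi was tested for 24 members one at a time, by the slope of log2(TPM + 1) on the group's rank and a two-sided exact permutation test. The p-values are given per gene and unadjusted. H2-K1, H2-D1, B2m, Tapbp, Psmb8, Psmb9, H2-K2, H2-Q4, H2-Q7, H2-T-ps, H2-T22 and H2-Ob were at the smallest p that the exact test allows, 0.00119. Of the 24, 9 (H2-K2, H2-Ob, H2-Q2, H2-Q4, H2-Q7, H2-T-ps, H2-T10, H2-T22 and H2-T23) entered because they had passed in a comparison of these same samples, which largely fixes their outcome, so their trend is a description. Of the other 15, 10 rose and 0 fell at an exact p of at most 0.05, against 7.14% and 7.85% of all genes tested. All of these 10 but Nlrc5 and Cd74 had also passed in GFPhi against GFPlo on the same samples. The count is therefore no separate support for those calls. H2-K1 rose by 0.76 per step on the log2 scale and H2-Ob fell by 0.65 on the log2 scale per step. Cd74 rose by 0.31 per step (exact p = 0.00714) and Nlrc5 by 0.12 (exact p = 0.0369). When samples were permuted only within replicate numbers, Nlrc5 was no longer past 0.05 (exact p = 0.0741) and Ciita was (exact p = 0.0463). Tap2 (exact p = 0.081), Ciita (exact p = 0.0738), H2-Aa (exact p = 0.069), H2-Ab1 (exact p = 0.192) and H2-Eb1 (exact p = 0.27) were not past 0.05.

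By overlap alone, 21 of the 48 tested members lay wholly higher in GFPhi than in GFPlo, where 8.26% of all genes did, and 6 lay wholly lower, where 9.92% did. Among the class II genes, H2-Ea lay wholly higher, at 3.13, 2.79 and 1.82 TPM in GFPlo and 5.40, 5.69 and 4.07 in GFPhi. Its mean of 1.39 RPKM over all samples is under the receptor-gene level, on 6 to 25 reads per sample. The 6 lower ones were Ciita, H2-DMa, H2-DMb2, H2-Ob, H2-Q10 and H2-Q2. Chromosome 17 carries 47 of the 52 members. Among the 43 tested there, 13 rose and 2 fell. Of the 174 other genes tested between the first and the last of them, 4 rose and 2 fell in GFPhi against GFPlo. For these 174 genes the counts are near the shares over all genes tested, 2.38% higher and 1.51% lower. The 6 genes were Lta, Ltb, Neu1, Wdr46, Gm19412 and 2310061I04Rik, of which Lta and Ltb encode lymphotoxin chains. They were picked out after their values had been seen.

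**Figure D5:**
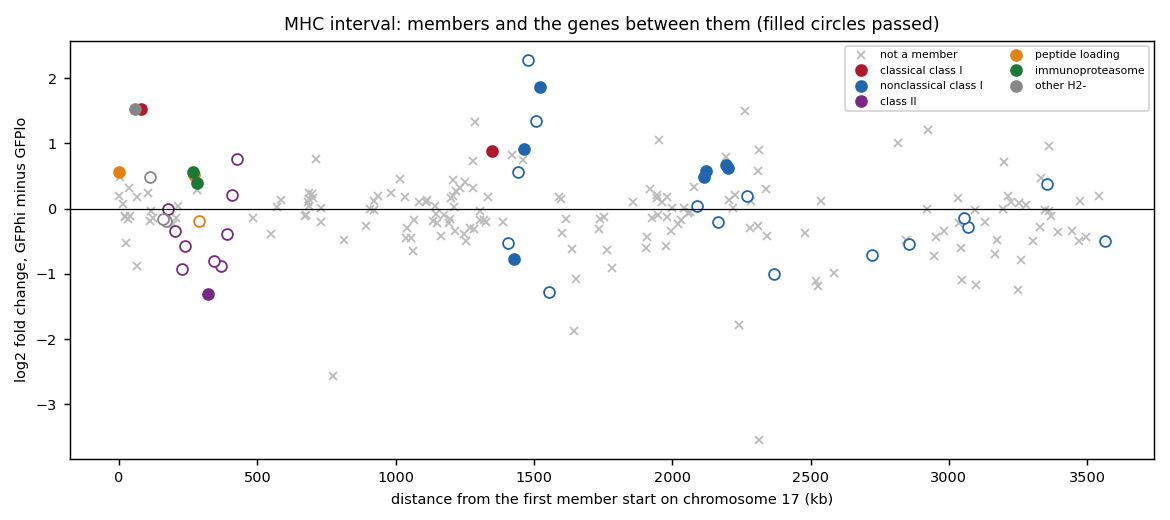
Log2 fold change in GFPhi against GFPlo along chromosome 17, in kb from the first member's start, for members (circles, filled where they passed) and the other 174 genes tested in the interval (crosses). Filled circles above 0 occur in separate groups, with open and falling members between them: Tapbp, H2-K2, H2-K1, Tap1, Psmb8 and Psmb9 at the left, H2-D1 with H2-Q4 and H2-Q7 near the middle, and the T series further right.

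Of 38 tested genes in the lists of partners of this pathway, 7 rose and 2 fell in GFPhi against GFPlo, and their median log2 fold change was 0.0553. The shares of all genes tested were 2.38% higher and 1.51% lower. Of 9 genes for loading and trimming, the proteasome activators Psme1 and Psme2 rose, by 0.49 ± 0.07 (SE, adjusted p = 0.0081) and 0.70 ± 0.09 (SE, adjusted p = 0.00587). The chaperone Calr read 1196, 1352 and 1309 TPM in the GFPlo samples, 1219, 1313 and 1166 in GFPmed and 935, 1069 and 931 in GFPhi, and fell by 0.39 on the log2 scale (adjusted p = 0.0358). That call was lost on leaving out any 1 of 7 samples, with adjusted p up to 0.143. In all, the call of Calr was lost in 12 of 20 other fits. Pdia3, its partner in the loading complex, fell as well. Of the 5 class I-like genes outside the H2 names none passed. Of 7 class II proteases and regulators tested, Ctss (cathepsin S, which trims the invariant chain) read 7.36, 5.16 and 7.22 TPM in the GFPlo samples, 9.67, 9.79 and 10.2 in GFPmed and 21.6, 21.1 and 21.7 in GFPhi. Ctss rose by 1.58 ± 0.15 (SE, adjusted p = 0.00129), with all 3 groups separate. Among the transcriptional regulators, Irf1, an activator of class I and immunoproteasome genes, read 195, 180.1 and 199.6 TPM in the GFPlo samples, 250.0, 228.5 and 212 in GFPmed and 305, 303 and 317 in GFPhi. It rose by 0.68 ± 0.07 (SE, adjusted p = 0.00237), with groups in order. Nfyb, a subunit of NF-Y, rose by 0.78 ± 0.09 (SE, adjusted p = 0.00323). Irf8 rose by 1.21 ± 0.22 (SE, adjusted p = 0.0263) from 2.02, 1.72 and 2.96 TPM in GFPlo to 5.87, 7.78 and 5.65 in GFPhi, under the receptor-gene level and lost on leaving out any 1 of 8 samples (adjusted p up to 0.111). Nfkb1, Rela, Nfya, Nfyc, Creb1, Irf2, Rfx5, Rfxap and Rfxank did not pass. With median-of-ratios scaling Ctss kept its call. Irf1 (adjusted p = 0.0588), Irf8 (adjusted p = 0.0879) and Nfyb (adjusted p = 0.105) lost theirs under that scaling. So did Psme2 (adjusted p = 0.157), Psme1 (adjusted p = 0.256) and Calr (adjusted p = 0.706).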

How the data were processed

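Semi-mature SP4 thymocytes from Nur77-eGFP mice, sorted by GFP into 3 groups of 3 samples, were measured by bulk RNA-seq. The authors trimmed reads, aligned them with STAR 2.7.11b (version from the submitters' processing notes) to GRCm38 with GENCODE annotation, removed identical duplicates, counted uniquely mapped reads per gene and converted counts to the deposited TPM, the values used here. The table also holds each group's mean signal, which the authors made from read counts divided by DESeq2 1.34.0 size factors. It further holds log2 fold changes, adjusted p-values and call scores of the authors' own comparisons, none of which were used. The divisor behind the deposited TPM followed the mean transcript span with introns, so levels of different genes were compared only as RPKM on exonic length, from an earlier GENCODE release for GRCm38.

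The 30693 genes that reached a TPM of 1 in 3 or more samples entered a limma 3.58.1 fit (R 4.3.3) of log2(TPM + 1), a single fit of all 9 samples with the trended eBayes option and Benjamini-Hochberg adjustment over all genes tested. Whole reads per gene and sample were solved from TPM and the group means, and 100% of the solved values came out whole within 0.001, for 41578 of 41978 genes and all 52 members. Depth was 7465552 to 14943774 reads per sample. No sample was left out, and no pair of replicates agreed within sampling noise. The fitting script was checked on simulated data. Ratios, means and the exact permutation test of trend were computed in Python 3.11.15, and trend p-values were not adjusted over the members.

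Values per sample are given for 15 members of a set list (H2-K1, H2-D1, B2m, Tap1, Tap2, Tapbp, Nlrc5, Psmb8, Psmb9, Psmb10, Ciita, Cd74, H2-Aa, H2-Ab1 and H2-Eb1) and for each further member that passed in a comparison. For pathway partners that passed, they are given for at most the 8 with the largest change, and some of these are not reported here. H2-Oa, H2-DMa, H2-DMb2, H2-M3, H2-Ea, H2-Q5, H2-Q6 and H2-Q10 were added after their values were seen. The members, the gene lists and the tests were chosen with earlier results of these data known. Alternatives were another pseudocount, other filters, median-of-ratios and quantile scaling, fits of 2 groups, eBayes without the trend, a replicate block, limma-voom on solved reads, the added fold limit and leaving out each sample.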

Additional observations from a re-analysis of the deposited data

How the results depend on the processing

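No member that passed, and no count, turned direction under any of 20 other fits. In GFPhi against GFPlo, H2-K1, H2-D1, H2-K2 and H2-Ob passed under all 20, and 13 members lost their call under at least 1. The 15 higher and 2 lower members became 5 and 1 with median-of-ratios scaling, 8 higher with eBayes without the trend, and 3 and 1 with the added fold limit; leaving out one sample gave 11 to 14 higher and 1 to 3 lower. Over all genes, 730 passed as higher and 464 as lower, against 338 and 75 with median-of-ratios scaling and 939 and 354 with limma-voom. Median-of-ratios scaling over genes above the receptor genes in TPM, chosen after seeing the data, gave 16 and 2 members. The median log2 fold change of all genes was -0.087 as deposited and -0.0202 with median-of-ratios scaling. The cause was not tested. In GFPmed against GFPlo, the 1 higher member became 2 with a pseudocount of 0.1 or with genes above the receptor genes in TPM only, and 0 with no filter, median-of-ratios or quantile scaling, the 2 groups alone, eBayes without the trend, the replicate block, the added fold limit, or without any 1 sample (0 to 0). In GFPhi against GFPmed, the 5 higher members became 8 with genes above the receptor genes in TPM, 2 with eBayes without the trend and 0 with median-of-ratios scaling or the added fold limit, and 3 to 5 without one sample. The 2 lower became 1 with eBayes without the trend, the replicate block or limma-voom, 0 with median-of-ratios scaling, the 2 groups alone or the added fold limit, and 0 to 2 without one sample. The trend count of 19, which includes 9 members that had entered because they passed in a comparison, was 18 with median-of-ratios scaling and 18 to 22 without one sample. Samples sharing a replicate number correlated positively in their deviations in all 9 pairs, by 0.0122 to 0.225 (mean 0.0609), with 1 pair over 0.1. The 18 pairs with different numbers had a mean of -0.0305. Because deviations were taken from each group's own mean, this second mean largely follows from the first and is no separate contrast. The replicate numbers were not taken as pairs because the labels do not say what they mark. Whether they mark shared mice or sorts cannot be told here, and the replicate block is the alternative. The replicate block gave 13 higher and 3 lower members in GFPhi against GFPlo, 5 and 1 in GFPhi against GFPmed, and 19 trends, with Nlrc5 lost and Ciita gained. Genes near or under the receptor-gene level, the conventional class II chains among them, were measured on few reads, which limits what a difference there can show.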
